A study of Mus musculus with 84 samples.

Results

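The inguinal adipose tissue (IAT) of 6 db/db mice given rosiglitazone (RSG) at 280 µmol/kg was compared with that of 6 db/db mice given the S compound at the same molar dose. These 12 mice are all the samples the labels place in the 2 groups, out of 84 samples in the series. Every mouse was a male of the strain BKS.Cg-m +/+ Lepr db/J, in which a defective leptin receptor leads to obesity and diabetes, and each received its compound by mouth for 18 days. Inguinal fat of each mouse was hybridised as a dye-swap pair of arrays against 1 pool of fat RNA from untreated db/db mice, so the 12 mice gave 24 arrays. Every level below is the log2 ratio of a treated mouse to that pool, averaged over the pair of arrays. The pool is common to both groups and cancels from every RSG minus S difference, but its own spread was not measured. The 24 other IAT mice given the same compounds at 28 or 84 µmol/kg are used for comparison, with 6 mice in each group. S is a code name whose structure is not stated in the labels, and the comparison asks how far the transcripts of inguinal fat differ between the compounds at the highest molar dose.

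RSG is a thiazolidinedione that activates the nuclear receptor PPARγ, the transcription factor that drives fat cell formation and keeps lipid uptake and storage genes active in mature adipocytes. PPARγ binds DNA with RXR at pairs of the motif AGGTCA spaced by 1 base. In subcutaneous depots such as IAT, sustained PPARγ activation is known to raise mitochondrial and thermogenic genes, among them Ucp1, the protein that lets the inner mitochondrial membrane release heat.

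The promoters of 4 genes are shown because the results turn on them: Ucp1 as the defining thermogenic gene, far above the pool with both compounds, and Rbp7, Btnl9 and Pdk1 as genes higher with RSG. Each window runs from 250 bases before to 50 bases after a RefSeq start site on GRCm38.p6, and was searched on both strands for AGGTCA, which is printed in capitals. Ucp1 lies at chr8:83290098-83290397 on the + strand, Rbp7 at chr4:149454919-149455218 on the - strand, Btnl9 at chr11:49187040-49187339 on the - strand and Pdk1 at chr2:71872974-71873273 on the + strand.
Ucp1: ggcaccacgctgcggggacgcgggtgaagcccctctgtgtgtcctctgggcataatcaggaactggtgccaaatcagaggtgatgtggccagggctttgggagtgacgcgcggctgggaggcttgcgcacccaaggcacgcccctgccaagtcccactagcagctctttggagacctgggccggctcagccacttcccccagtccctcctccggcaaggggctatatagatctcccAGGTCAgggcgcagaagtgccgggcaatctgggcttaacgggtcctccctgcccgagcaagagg
Rbp7: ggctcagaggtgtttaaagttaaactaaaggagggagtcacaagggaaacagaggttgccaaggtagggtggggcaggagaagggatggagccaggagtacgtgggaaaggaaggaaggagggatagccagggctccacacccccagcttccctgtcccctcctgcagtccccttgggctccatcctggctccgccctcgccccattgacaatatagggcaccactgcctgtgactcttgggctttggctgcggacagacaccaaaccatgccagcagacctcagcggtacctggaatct
Btnl9: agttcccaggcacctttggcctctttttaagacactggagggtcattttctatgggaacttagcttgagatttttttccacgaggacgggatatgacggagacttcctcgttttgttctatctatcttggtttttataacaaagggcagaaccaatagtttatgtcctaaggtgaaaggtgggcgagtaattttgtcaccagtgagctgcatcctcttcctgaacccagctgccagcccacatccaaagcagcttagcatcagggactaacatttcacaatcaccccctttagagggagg
Pdk1: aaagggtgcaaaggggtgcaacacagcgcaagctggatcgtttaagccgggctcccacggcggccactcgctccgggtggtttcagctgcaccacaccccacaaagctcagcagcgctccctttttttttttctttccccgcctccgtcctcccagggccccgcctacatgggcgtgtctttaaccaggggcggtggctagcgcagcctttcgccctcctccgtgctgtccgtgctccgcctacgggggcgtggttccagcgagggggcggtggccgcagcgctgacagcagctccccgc
AGGTCA stood once in the Ucp1 window, 14 bases before the start site on the strand of the gene, and these letters did not occur in the other 3 windows shown. The same motif was held by 16.3% of all 32851 promoter windows. It was held by 6 of the 28 established PPARγ targets with a window (21.4%), against 18.1% of all 27025 genes. The full pair, AGGTCA repeated after 1 free base, was found in 13 windows (0.0396%) and in none of those of the PPARγ targets or thermogenic genes. A match of letters is a description of the sequence and says nothing about binding.

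The tissue carried the markers of fat in every mouse, and the levels of markers of other tissues were uneven between mice. All 20 adipocyte markers were tested, and their median level was -0.107 to 0.253 in the RSG mice and 0.07 to 0.3 in the S mice. Skeletal muscle markers, by contrast, had list medians of -3.41 to 0.55 in the RSG mice and -3.72 to -1.23 in the S mice. Markers of epithelium and skin lay between -0.0378 and -2.64 in the RSG mice and between -0.143 and -3.7 in the S mice, and S replicate 3 held the highest value of its group. Mesothelial markers ranged from -0.92 to 2.8 with RSG and from -0.79 to 2.05 with S. In bulk tissue, fewer cells of a type and less RNA per cell cannot be told apart.

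S replicate 3 stood apart from the other S mice, with an SD of 0.474 for its deviations from the group mean over all sequences, and RSG replicate 2 stood as far from its own group, at 0.493. The other 10 mice lay between 0.214 and 0.399. The treated mouse's channel was well above background for 65.2 to 75.5% of probes on the RSG arrays and for 63.3 to 77.1% on the S arrays. Median signal over background was 3.1 to 3.76 for RSG and 2.62 to 3.01 for S, with no overlap between the compounds. All RSG arrays were scanned on 1 day and the S arrays on 2 later days, and every slide held 1 compound, so compound, scan day and slide cannot be told apart at this dose.

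**Figure D1:**
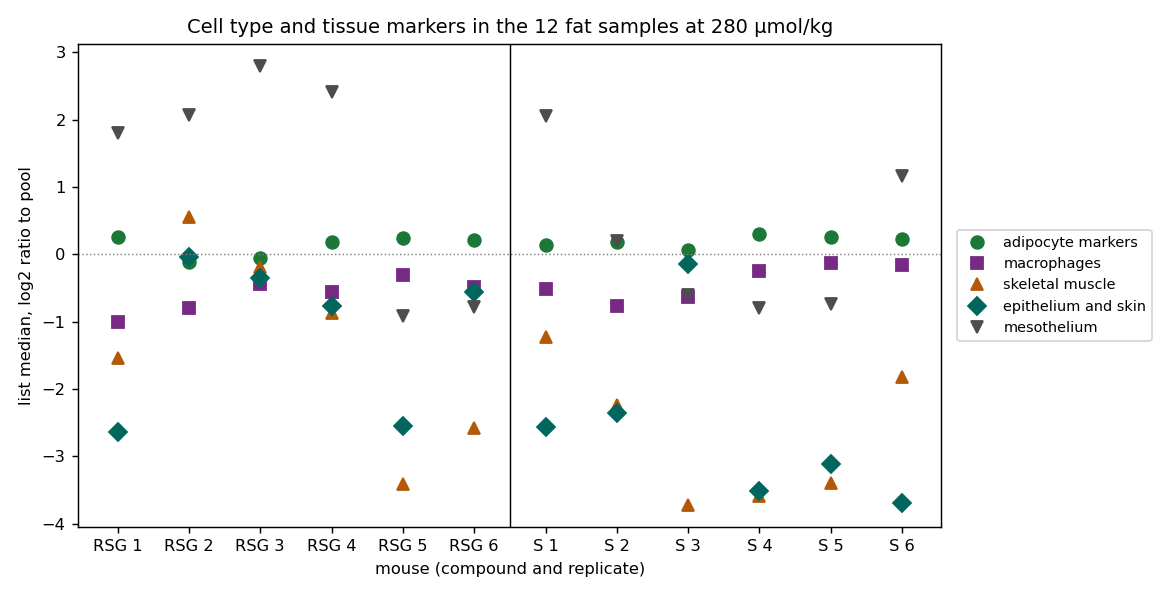
Median level of 5 marker lists in each of the 12 fat samples at 280 µmol/kg (y axis, log2 ratio to the pool; x axis, mouse by compound and replicate). Adipocyte markers lay near 0 in every mouse, between -0.107 and 0.3, while muscle, epithelial and mesothelial markers were spread over several log2 units within each compound.

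At 280 µmol/kg very few single transcripts separated RSG from S beyond the spread between mice. Of 29593 sequences tested with limma, 1 had a Benjamini-Hochberg adjusted p under 0.05 (0.00338%), and 4171 (14.1%) had an unadjusted p under 0.05, of which 1228 (4.15%) were higher and 2943 (9.94%) lower with RSG. The thresholds named in the study's methods, an unadjusted p under 0.001 with a change of at least 1.3-fold, were passed by 80 sequences (0.27%), 35 of them higher with RSG. The balance of directions depended on the processing. With each mouse centred on its median 51 were higher and 46 lower, and with a normexp background correction 24 and 14. The groups did not overlap for 357 sequences (1.21%), 140 higher (0.473%) and 217 lower (0.733%) with RSG.

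Differences between the compounds were small for most of the transcriptome, and the intervals say how small. The median absolute difference was 0.109 log2 units, and the 95% interval lay within a 1.5-fold change either way for 80.7% of sequences and within 2-fold for 93.1%. The median difference over all sequences was -0.038. For the remaining sequences these mice do not bound the difference so closely, and a p above the threshold does not show that the compounds acted alike. All intervals treat the 12 mice as independent, although values of mice on 1 slide had a correlation of 0.279. They can therefore be too narrow, and they do not cover the part that slide or scan day may have in a difference.

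The single transcript called was 6330408A02Rik, a RIKEN clone whose probe lies at chr7:12174150-12174209 (mm8). Its level was lowest at -0.53, median -0.34 and highest at -0.15 in the RSG mice, and 0.30, 0.38 and 0.58 in the S mice. All RSG mice were below the pool and all S mice above it. The difference was -0.77 ± 0.08 (SE, 6 mice a group, limma adjusted p = 0.03). The probe was dim, well above background on 4 of 12 RSG arrays and 10 of 12 S arrays, so it entered the test through the S arrays, where it is higher, and the size of its difference rests on RSG signals that were mostly not well above background. With a normexp background correction the difference was -0.12, and a stricter filter on dim probes left the probe out. When mice were left out in turn it stayed between -0.81 and -0.73 and was called in 4 of the 12 leave-one-out fits, with adjusted p from 0.033 to 0.14.

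Without S replicate 3, 3 sequences were called (0.0101%): 6330408A02Rik at -0.78, Mgst3, a microsomal glutathione transferase, at -0.76 and Igh-VJ558, an immunoglobulin heavy chain variable gene, at 1.13, each with a limma adjusted p of 0.044 (1 higher with RSG, 0.00338%, and 2 lower, 0.00676%). Sequences with an unadjusted p under 0.05 then numbered 5457 (18.4%), and those past the methods' thresholds 142 (0.48%). When the spread was estimated over all 36 IAT mice, the same contrast called 494 sequences (1.67%), 126 higher (0.426%) and 368 lower (1.24%) with RSG. Leaving out S replicate 3 from that larger fit gave 1145 (3.87%), of which 466 were shared with the 494. The 12 mice compared here had a median residual SD of 0.174 against 0.164 over the 36, and results that rest on the larger fit are named as such. The median SD between mice was 0.181 with RSG and 0.155 with S at 280 µmol/kg, and 0.117 to 0.174 in the groups at lower doses. The larger fit can therefore understate the error at 280 µmol/kg.

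Thermogenic genes stood far above the pool with both compounds. Of 24 such genes, 14 had an RSG mean and 15 an S mean of at least 2-fold over the pool. The groups overlapped for all 24, where 1.21% of all sequences did not overlap. The 24 genes had a median difference of -0.0775, and 1 of them, Tmem26, had an unadjusted p under 0.05 (over all sequences the median was -0.038 and 14.1% passed). The 95% interval lay within 1.5-fold for 15 of them.

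Ucp1 (probe at chr8:86187994-86188053, mm8) had levels of 2.38 lowest, 3.42 median and 3.54 highest in the RSG mice and 3.13, 3.32 and 3.74 in the S mice. RSG replicate 2 was the low value, and the other 5 RSG mice lay inside the range of the S mice. The difference was -0.09 (95% interval -0.49 to 0.31), a ratio of RSG to S of 0.941 with an interval of 0.712 to 1.24 (limma adjusted p = 0.82). Without RSG replicate 2 it was 0.09 (-0.11 to 0.29).

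Cidea, a lipid droplet protein abundant in brown and beige fat cells, ranged from 2.82 to 3.95 with RSG (median 3.54) and from 3.17 to 4.17 with S (median 3.57). Cox8b, a cytochrome oxidase subunit of thermogenic fat and muscle, ranged from 1.56 to 1.96 with RSG (median 1.79) and from 1.24 to 2.34 with S (median 1.73). Elovl3, a fatty acid elongase induced in brown fat, ranged from 1.93 to 3.23 with RSG (median 2.98) and from 3.14 to 3.43 with S (median 3.23). Both groups overlapped for all 3, with differences of -0.14 (interval -0.55 to 0.27), 0.01 (-0.34 to 0.37) and -0.38 (-0.79 to 0.02). Without RSG replicate 2 those of Cidea and Elovl3 were -0.01 and -0.19.

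The regulators of the program were near each other too. The coactivators Ppargc1a and Ppargc1b had differences of 0.06 (interval -0.23 to 0.36) and -0.19 (-0.45 to 0.06). Prdm16, a transcription factor of brown and beige identity, had a difference of -0.07 (-0.31 to 0.18). Dio2, which activates thyroid hormone, was less well bounded at -0.64 (-1.64 to 0.36), with RSG replicate 2 at -0.24 while the group's median was 2.29, and it was -0.21 without that mouse. RSG replicate 2 was the lowest RSG mouse for 16 of the 24 thermogenic genes, and S replicate 3 the lowest S mouse for 7.

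Tmem26, a surface marker of beige adipocytes, was the 1 member under an unadjusted p of 0.05, and it was a dim probe. Its level was -0.87 lowest, -0.35 median and 0.14 highest with RSG and 0.08, 0.35 and 0.71 with S. RSG replicate 5 was the 1 RSG mouse above the pool, all S mice were above it, and the groups overlapped by a small margin. The difference was -0.80 (interval -1.16 to -0.43), with a limma adjusted p of 0.19 in the 12 mice and 0.037 with the spread of all 36. The probe was well above background on 5 of 12 RSG arrays and 11 of 12 S arrays, so it too entered the test through the group where it is higher, a stricter filter left it out, and the difference was -0.24 after normexp.

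**Figure D2:**
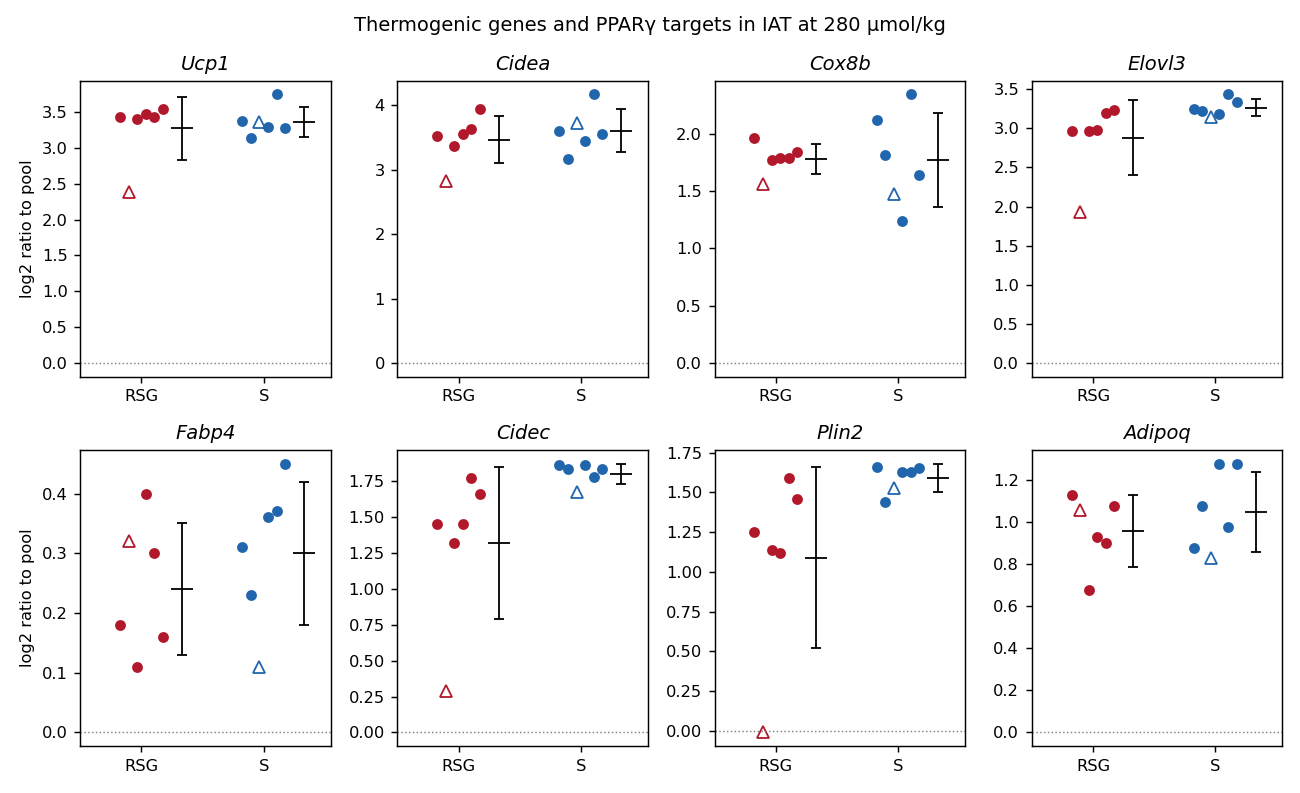
Level of 8 thermogenic genes and PPARγ targets in each mouse at 280 µmol/kg (y axis, log2 ratio to the pool; red, RSG; blue, S). Points are mice, open triangles are RSG replicate 2 and S replicate 3, and bars are mean ± SD; the groups overlap in every panel, and RSG replicate 2 is the low point for Ucp1, Elovl3, Cidec and Plin2.

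Established PPARγ targets, a list that shares Ucp1 and Cidea with the thermogenic genes, likewise overlapped between the compounds. Of 35 listed, 34 were tested and all 34 overlapped, with a median difference of -0.119, 1 higher and 4 lower at an unadjusted p under 0.05, and 25 intervals within 1.5-fold. Over all sequences 4.15% were higher and 9.94% lower at that p, and 1.21% did not overlap. Means at least 2-fold over the pool were found for 12 with RSG and 16 with S. RSG replicate 2 was the lowest RSG mouse for 22 of the 34, and S replicate 3 the lowest S mouse for 12.

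Among the targets that handle incoming lipid, Cd36, a fatty acid transporter, had a difference of 0.10 (interval -0.09 to 0.29), and Lpl, which releases fatty acids from lipoproteins, of -0.08 (-0.26 to 0.10). Fabp4, which shuttles fatty acids inside adipocytes, had -0.06 (-0.21 to 0.10), but its probe was saturated on all 24 arrays and that of Lpl on 23, which limits what either can show. Aqp7, the glycerol channel of fat cells, ranged from 1.14 to 1.79 with RSG and from 1.52 to 2.03 with S, a difference of -0.20 (-0.46 to 0.06). Gk, which phosphorylates glycerol and is a known marker of thiazolidinedione action in fat, ranged from 1.15 to 2.48 and from 2.08 to 2.88, a difference of -0.37 (-0.82 to 0.08), or -0.20 without RSG replicate 2. The other Gk probes, with all mice, gave -0.40 (-0.91 to 0.11), -0.50 (-0.96 to -0.05) and -0.50 (-1.04 to 0.03). Adiponectin (Adipoq), the insulin-sensitising hormone of adipocytes, was about 2-fold over the pool in both groups, with a difference of -0.09 (-0.31 to 0.13).

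Among the proteins that coat lipid droplets, 1 RSG mouse stood far below the others for Cidec and Plin2. Cidec, which enlarges droplets, ranged from 0.29 to 1.77 with RSG (median 1.45) and from 1.67 to 1.86 with S (median 1.83). Plin2 ranged from -0.01 to 1.59 with RSG (median 1.19) and from 1.44 to 1.66 with S (median 1.63). In both genes the S mice lay close together, RSG replicate 2 was far below, and the differences of -0.48 (interval -0.92 to -0.04) and -0.50 (-0.98 to -0.02) had limma adjusted p of 0.33 and 0.34. Without RSG replicate 2 they were -0.27 and -0.28. The Cidec probe was saturated on 13 arrays. Plin4 had a difference of 0.30 (0.11 to 0.48), with levels of -1.05 to -0.73 for RSG and -1.33 to -0.99 for S, below the pool in all 12 mice (adjusted p = 0.25).

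Olr1, a receptor for oxidised lipoproteins that PPARγ agonists raise in adipocytes, ranged from 0.01 to 1.45 with RSG and from 1.11 to 2.24 with S. Its difference was -0.66 (interval -1.28 to -0.05, limma adjusted p = 0.34). The 20 fatty acid synthesis genes had a median difference of -0.00414, with list medians per mouse of 0.0739 to 1.1 with RSG and 0.596 to 1.2 with S, and RSG replicate 2 was the low mouse, the other 5 lying between 0.683 and 1.1. Fatty acid synthase (Fasn) ranged from -0.17 to 2.08 with RSG and from 1.21 to 1.91 with S, and Acaca, which makes malonyl-CoA, from 0.07 to 2.03 and from 1.00 to 1.86. Their differences of 0.09 (-0.64 to 0.82) and -0.02 (-0.64 to 0.61) leave room for changes above 1.5-fold either way, and without RSG replicate 2 they were 0.43 (0.11 to 0.75) and 0.23 (-0.20 to 0.66).

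**Figure D3:**
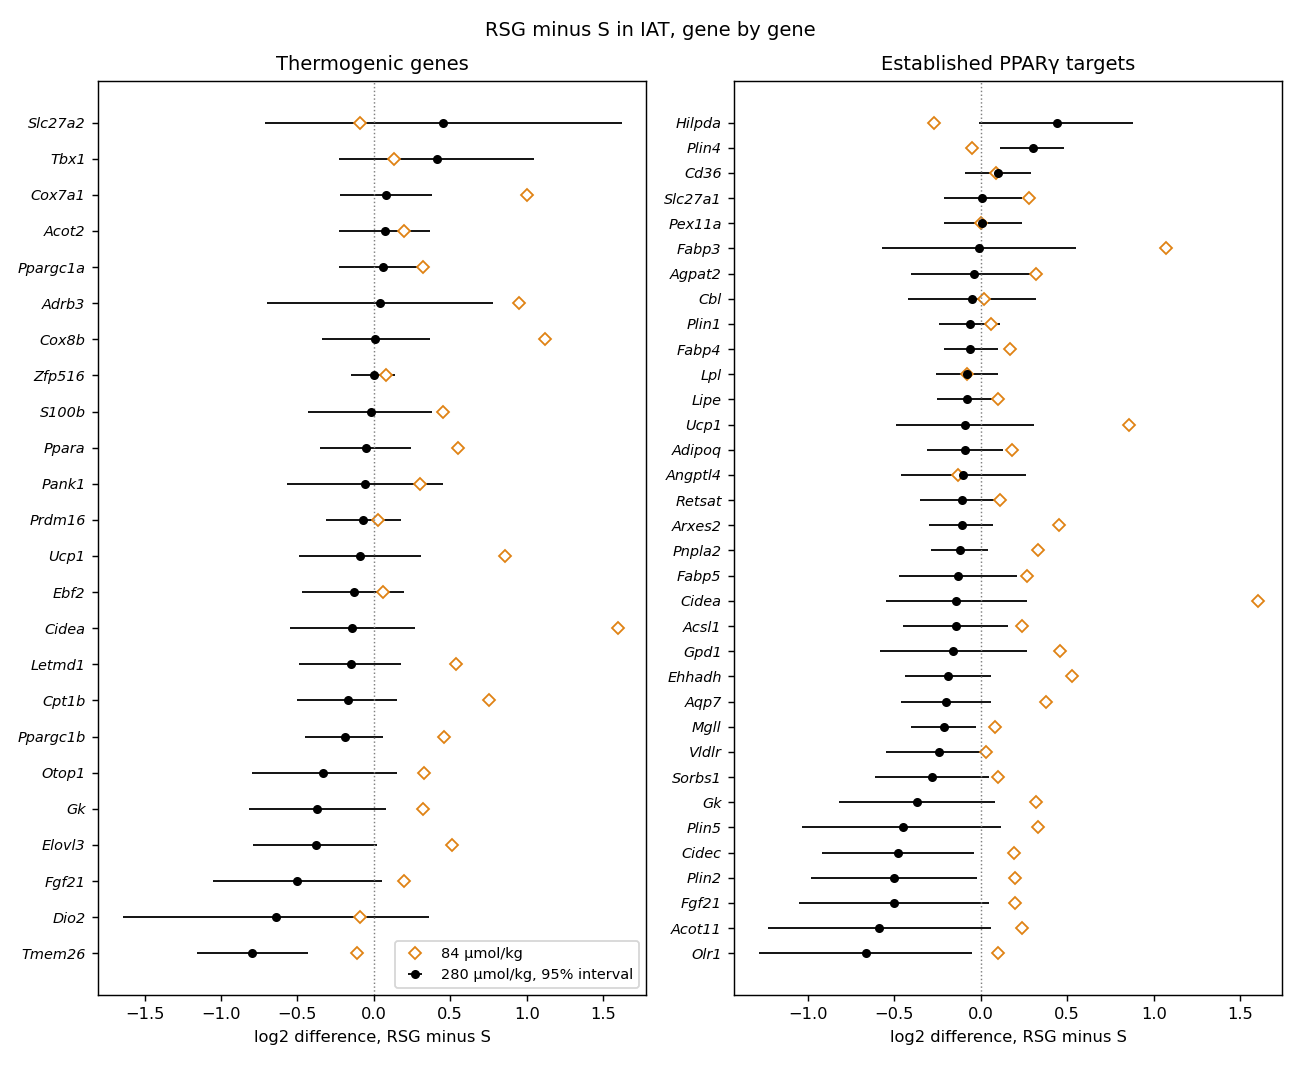
RSG minus S difference of each thermogenic gene and each PPARγ target tested (x axis, log2 units; y axis, genes in order of the difference at 280 µmol/kg). Black points with bars are the 280 µmol/kg difference and its 95% interval, and open diamonds the 84 µmol/kg difference, which lies to the right of the 280 µmol/kg value for Ucp1, Cidea and Cox8b.

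Mitochondrial genes were closely bounded in the fit that treats the 12 mice as independent. All 25 β-oxidation genes tested had an interval within 1.5-fold, with a median difference of -0.0891 and 1 lower at an unadjusted p under 0.05. That gene was Cpt1a, which carries long-chain fatty acids into the mitochondrion, at -0.24 (interval -0.39 to -0.09), with limma adjusted p of 0.25 in the 12 mice and 0.039 with all 36. A second Cpt1a probe gave -0.29 (adjusted p = 0.046 with all 36). The β-oxidation list stood well over the pool, with list medians per mouse of 0.652 to 1.15 with RSG and 0.854 to 1.28 with S.

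The respiratory chain was also closely bounded in that fit. All 37 complex I genes had an interval within 1.5-fold (median difference -0.0412, 0 higher and 1 lower at an unadjusted p under 0.05), as did 29 of 30 genes of complexes III and IV (median -0.0452, 0 higher and 1 lower). The 15 ATP synthase genes tested had a median of -0.0146 with 0 of them under 0.05, and the 36 mitochondrial ribosome genes a median of -0.104 with 0 higher and 3 lower. Of the 22 citrate cycle genes, 3 were higher and 0 lower, and the median was -0.0379. Over all sequences 4.15% were higher and 9.94% lower at that p. One of the 3 was Idh2, the mitochondrial NADP-dependent isocitrate dehydrogenase, with levels of 0.01 to 0.34 for RSG and -0.38 to -0.01 for S, no overlap, and a difference of 0.29 (interval 0.11 to 0.47, limma adjusted p = 0.25 in the 12 mice and 0.048 with all 36).

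The difference between the compounds on these genes was of another size at 84 µmol/kg. There 666 of 30475 sequences were called (2.19%), 428 higher (1.4%) and 238 lower (0.781%) with RSG, in a fit with all 36 IAT mice. The 428 higher ones had a median difference of 0.336 at 84 µmol/kg and of -0.0164 at 280 µmol/kg, where 56 were higher and 15 lower at an unadjusted p under 0.05. The first of these medians is set by the choice of the sequences and is given as a description. Over all sequences at 280 µmol/kg, 4.15% were higher and 9.94% lower with RSG at an unadjusted p under 0.05. At 28 µmol/kg 2 were called (0.00656%), Rgs5 at -0.74 and Cd247 at -0.80.

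For Ucp1 the mean was 2.81 ± 0.20 (SD, n = 6) with RSG and 1.96 ± 0.18 with S at 84 µmol/kg, and 1.52 ± 0.47 and 1.23 ± 0.23 at 28 µmol/kg, against 3.27 ± 0.44 and 3.36 ± 0.21 at 280 µmol/kg. The difference was 0.86 at 84 µmol/kg (limma adjusted p = 0.0064) and 0.29 at 28 µmol/kg, and the change in the difference from 84 to 280 µmol/kg was -0.95 with an adjusted p of 0.052. For Cidea the difference was 1.6 at 84 µmol/kg (adjusted p = 0.0037), and the change to 280 µmol/kg was -1.74 (adjusted p = 0.044). For Cox8b it was 1.12 (adjusted p = 0.0045), with a change of -1.10 (adjusted p = 0.061). These 3 genes were lower with S than with RSG at 84 µmol/kg, and at 280 µmol/kg the groups overlapped. With scan day as a block over 24 mice, no call was left at 84 µmol/kg: the differences there were 0.80 for Ucp1 (interval 0.08 to 1.51, adjusted p = 0.43), 2.69 for Cidea (1.23 to 4.14, 0.28) and 0.69 for Cox8b (-0.36 to 1.73, 0.66).

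Across the whole table, the test of the dose by compound interaction called 335 sequences (1.1%), 71 with a higher and 264 with a lower RSG minus S difference at 280 than at 84 µmol/kg. Called lower in this test were 8 of the 25 β-oxidation genes, 7 of 30 genes of complexes III and IV, 6 of 36 mitochondrial ribosome genes, 5 of 37 complex I genes, 4 of 22 citrate cycle genes, 2 of 15 ATP synthase genes, 4 of 24 thermogenic genes and 2 of 34 PPARγ targets, and 0 genes of these 8 lists were called higher. The thermogenic genes were Cidea, Cpt1b, Ppargc1b and Letmd1. Cpt1b, the muscle and brown fat form of the carnitine transferase, had differences of 0.75 at 84 µmol/kg and -0.17 at 280 µmol/kg (interaction adjusted p = 0.026). Ehhadh, a peroxisomal oxidation enzyme and PPARα target, had 0.53 and -0.19 (adjusted p = 0.048).

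These counts were sensitive to the mice and the values used. The interaction called 49 sequences after normexp and 1404 without S replicate 3. At 84 µmol/kg, a fit with scan day as a block over 24 mice called 0 sequences (smallest limma adjusted p = 0.18, 3292 at an unadjusted p under 0.05), while the median of the thermogenic list went from 0.325 to 0.452.

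**Figure D4:**
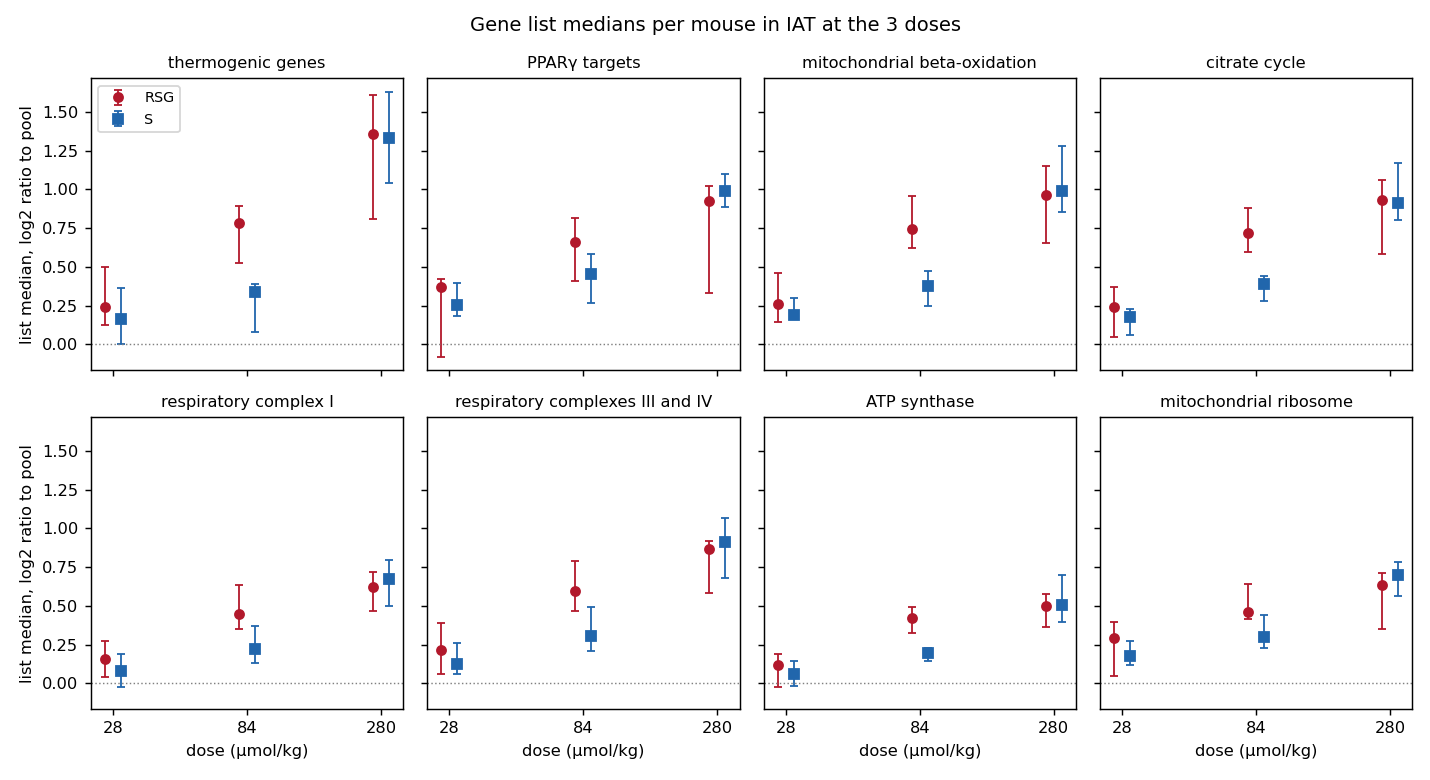
Medians of 8 gene lists at the 3 doses (x axis, µmol/kg; y axis, list median of a mouse as log2 ratio to the pool; red circles, RSG; blue squares, S). Markers are the middle of the 6 mice and bars run from the lowest to the highest; for the thermogenic list the middle mouse stood at 0.78 with RSG and 0.337 with S at 84 µmol/kg and at 1.36 and 1.33 at 280 µmol/kg.

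A few genes were higher with RSG at the highest dose when the spread of all 36 mice was used, and 0 of them were called in the 12 mice. The genes in the next 3 paragraphs meet the criteria used for naming genes in the fit over all 36 mice rather than in that of the 12, and were chosen after their values were seen. In that larger fit, 95 genes were called, did not overlap between the groups and were above background in both, 40 higher and 55 lower with RSG (1.67% of all sequences were called).

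Rbp7 (probe at chr4:148293514-148293573, mm8), a carrier of retinol in fat and its vessels, had levels of 2.44 lowest, 2.59 median and 2.69 highest with RSG, and 0.63, 1.33 and 2.41 with S. The RSG mice lay close together, whereas the S mice were widely spread and every one was below all RSG mice. The difference was 1.18 ± 0.26 (SE), or 2.27-fold (interval 1.53 to 3.36), with a limma adjusted p of 0.2 in the 12 mice and 0.011 with all 36. A second probe gave 1.06. At 84 µmol/kg the difference was 2.25 (adjusted p = 3.9e-07), with means of 1.84 ± 0.29 for RSG and -0.41 ± 0.41 for S, and at 28 µmol/kg it was 1.12. With scan day as a block the 84 µmol/kg difference was 1.83 (interval 1.04 to 2.62) with an adjusted p of 0.18.

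Btnl9 (probe at chr11:49012053-49012112, mm8), a butyrophilin-like surface protein, ranged from 2.11 to 2.57 with RSG (median 2.35) and from 0.87 to 2.06 with S (median 1.46). Again the groups did not overlap, and the difference of 0.88 (interval 0.44 to 1.31; adjusted p = 0.22 in the 12 mice and 0.037 with all 36 in limma) stood beside 1.27 at 84 µmol/kg, or 0.61 (-0.31 to 1.53) with scan day as a block. Pdk1 (probe at chr2:71704602-71704661, mm8), a kinase that holds back pyruvate oxidation, ranged from 0.70 to 0.98 with RSG (median 0.74) and from -0.13 to 0.40 with S (median 0.29). Both of its probes gave 0.55, and the difference was 0.56 at 84 µmol/kg. Cdh13, the T-cadherin that binds adiponectin, ranged from 0.06 to 0.44 with RSG and from -0.27 to -0.05 with S, a difference of 0.40 (0.25 to 0.54). A second Cdh13 probe gave 0.02 (-0.31 to 0.35), so the Cdh13 difference rests on 1 probe. Gba2, a glucosylceramide-cleaving enzyme, ranged from 0.08 to 0.42 and from -0.45 to 0.01, a difference of 0.46 (0.26 to 0.65). In the 12 mice Pdk1, Cdh13 and Gba2 each had a limma adjusted p of 0.19. Disp2 had a difference of 1.2 at the probe used (adjusted p = 0.00064 with all 36) but -0.11 at its second probe, so its direction is uncertain.

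Among those higher with RSG were also matrix genes that stood below the pool in both groups. The basement membrane collagen gene Col18a1 ranged from -1.19 to -0.88 with RSG and from -1.54 to -1.23 with S, and the matrix protein gene Dpt from -0.80 to -0.44 and from -1.47 to -0.95. Their differences were 0.40 and 0.44 at 280 µmol/kg and 0.02 and 0.06 at 84 µmol/kg. On the lower side, Deptor, an inhibitor of mTOR, ranged from 0.44 to 1.21 with RSG and from 1.34 to 1.58 with S, a difference of -0.50 (interval -0.76 to -0.24). Cdkn1a, the cell cycle inhibitor p21, ranged from 0.22 to 1.21 and from 1.28 to 1.65, a difference of -0.53 (-0.86 to -0.20). The differences of Npas1 (-0.84), Col10a1 (-1.08) and C1qtnf3 (0.79) came to -0.13, -0.03 and 0.18 after normexp, and those of Deptor and Cdkn1a to -0.49 and -0.51.

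**Figure D5:**
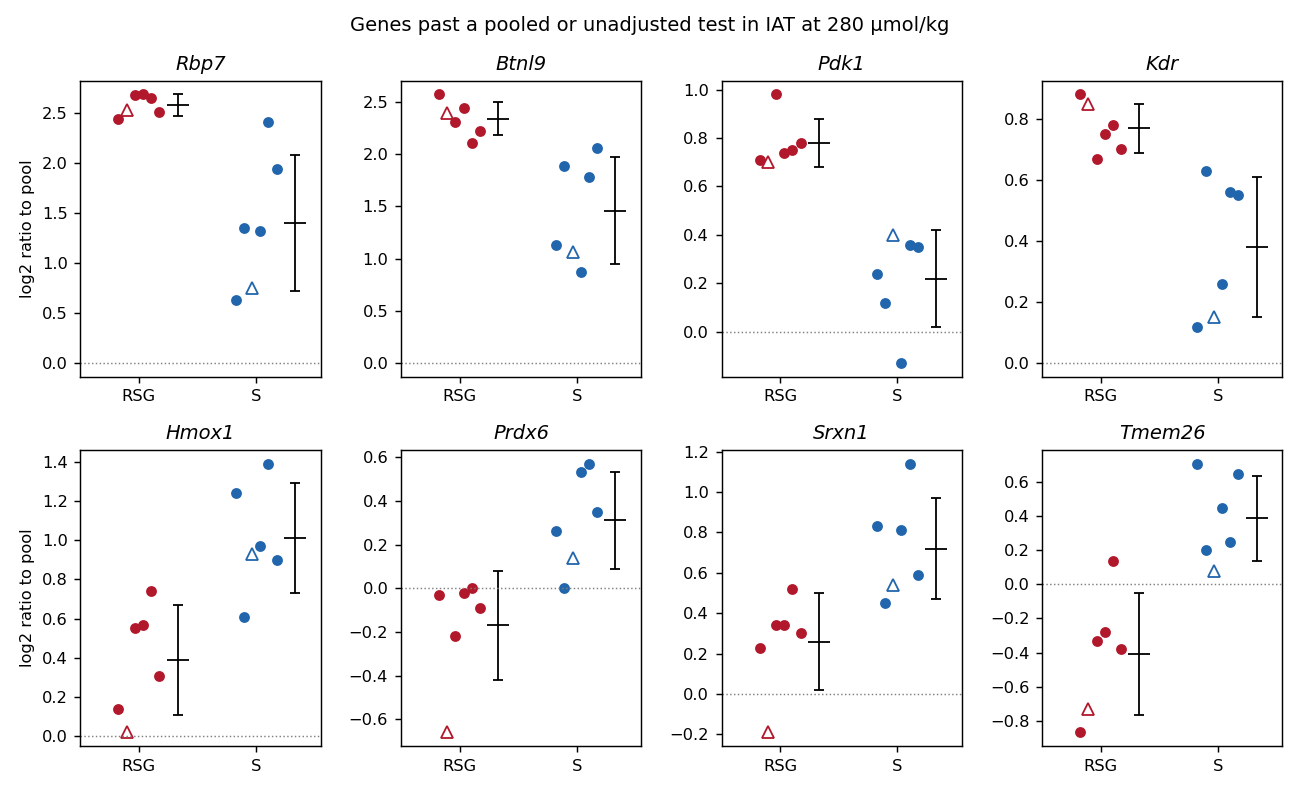
Level of 8 genes that passed a test with the spread of all 36 mice or an unadjusted test, in each mouse at 280 µmol/kg (y axis, log2 ratio to the pool; red, RSG; blue, S; open triangles, RSG replicate 2 and S replicate 3; bars, mean ± SD). The groups do not overlap for Rbp7, Btnl9, Pdk1, Kdr and Prdx6, and overlap by a small margin for Hmox1, Srxn1 and Tmem26.

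Genes of oxidative stress defence were lower with RSG more often than higher. Of 26 tested, 9 were lower and 2 higher at an unadjusted p under 0.05, where 9.94% of all sequences were lower and 4.15% higher, and the list's median difference was -0.101 against -0.038. With the spread of all 36 mice 3 were called, all lower with RSG: Hmox1, which degrades haem, Prdx6, a peroxiredoxin, and Srxn1, which restores oxidised peroxiredoxins. Hmox1 ranged from 0.02 to 0.74 with RSG (median 0.43) and from 0.61 to 1.39 with S (median 0.95).

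Every mouse of both groups was above the pool for Hmox1, and the S mice lay higher with a narrow overlap. Its difference was -0.62 (interval -0.95 to -0.29), a ratio of 0.652, with a limma adjusted p of 0.23 in the 12 mice and 0.02 with all 36. Prdx6 ranged from -0.66 to 0.00 with RSG and from 0.00 to 0.57 with S, without overlap before rounding, a difference of -0.48 (-0.76 to -0.20). Srxn1 ranged from -0.19 to 0.52 with RSG and from 0.45 to 1.14 with S, a difference of -0.47 (-0.76 to -0.17). Catalase (Cat), which breaks down hydrogen peroxide, had -0.33 (-0.56 to -0.11). Nfe2l2, the transcription factor NRF2 that drives many of these genes, had 0.15 (0.03 to 0.27), the opposite sign. At 84 µmol/kg the differences of Hmox1, Prdx6 and Srxn1 were -0.10, 0.01 and -0.15, and the interaction adjusted p values were 0.12, 0.07 and 0.19. Leaving out S replicate 3 gave 10 lower and 2 higher, where 12.4% of all sequences were lower and 6.05% higher.

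Complement genes were higher with RSG more often than lower. Of 19 tested, 7 were higher and 1 lower at an unadjusted p under 0.05, with a median difference of 0.223. Over all sequences 4.15% were higher and 9.94% lower. Without S replicate 3 the counts were 4 and 1, where 6.05% of all sequences were higher and 12.4% lower. At 84 µmol/kg the list's median difference was -0.149, with 0 called higher and 2 lower. C2, a classical pathway protease, ranged from -0.31 to 0.25 with RSG and from -0.77 to -0.36 with S, without overlap, a difference of 0.50 (interval 0.23 to 0.77). Cfi, which cleaves active complement, ranged from -1.10 to 1.14 with RSG and from -2.0 to -0.40 with S, a difference of 1.18 (0.38 to 1.97). Both were called with the spread of all 36 mice (limma adjusted p = 0.04 and 0.048).

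Cfd, the adipocyte protease adipsin, was below the pool in all 12 mice, from -2.46 to -1.28 with RSG and from -2.88 to -2.25 with S. Its difference was 0.54 (interval 0.12 to 0.96, limma adjusted p = 0.29) but -0.06 after quantile normalisation between mice, so its direction is uncertain. For Cfi and for Cfb, the factor B protease that adipsin cleaves, the interaction with dose was called: Cfi had -1.11 at 84 µmol/kg and 1.18 at 280 µmol/kg (adjusted p = 0.023), and Cfb -0.56 and 0.31 (adjusted p = 0.029).

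Macrophage markers were below the pool in all 12 mice, with list medians of -1.01 to -0.307 for RSG and -0.762 to -0.129 for S. Of 25 tested, 2 were higher and 5 lower with RSG at an unadjusted p under 0.05 (4.15% and 9.94% over all sequences), and the median difference was -0.182. One of the higher was C1qc, a chain of complement C1q, at 0.24 (interval 0.02 to 0.47, limma adjusted p = 0.33). The lipid-associated macrophage genes Lgals3, Gpnmb and Trem2 had differences of -0.64 (interval -1.01 to -0.27), -0.86 (-1.51 to -0.21) and -0.53 (-0.96 to -0.10), with limma adjusted p of 0.24, 0.29 and 0.3. Spp1, the secreted osteopontin, ranged from -1.93 to -0.95 with RSG and from -1.73 to 1.52 with S, so the S mice ran from the level of the RSG mice to far above it. Of 8 mast cell markers, 3 were higher and 0 lower with RSG at an unadjusted p under 0.05 (4.15% and 9.94% over all sequences), with a median difference of 0.286, and 0 were called by limma after adjustment in the 12 mice or with all 36. Mcpt4, a connective tissue mast cell protease, ranged from -0.25 to 0.11 with RSG and from -0.66 to -0.25 with S, a difference of 0.38 (0.17 to 0.59, adjusted p = 0.23).

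Endothelial markers were mixed. Of 20 tested, 7 were higher and 2 lower with RSG at an unadjusted p under 0.05 (4.15% and 9.94% over all sequences), and the median difference was 0.0451. Kdr, the main VEGF receptor of vessels, ranged from 0.67 to 0.88 with RSG and from 0.12 to 0.63 with S, without overlap, a difference of 0.39 (interval 0.18 to 0.60; limma adjusted p = 0.23 in the 12 mice and 0.074 with all 36), and of 0.54 at 84 µmol/kg (adjusted p = 0.011, or 0.67 with scan day as a block). Cldn5, a tight junction protein, had 0.43 (0.10 to 0.77), and Gpihbp1, which anchors lipoprotein lipase on capillaries, 0.26 (0.10 to 0.43). Vwf, a clotting protein of endothelial cells, had -0.24 (-0.38 to -0.10), the opposite sign, and was called with the spread of all 36 mice (adjusted p = 0.046).

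In glycolysis and glucose uptake, 8 of 31 genes were higher and 1 lower at an unadjusted p under 0.05, with a median difference of 0.145, where 4.15% of all sequences were higher and 9.94% lower. Without S replicate 3 the median was 0.0491 with the same counts. The list holds muscle enzymes: Eno3, the muscle enolase, ranged from -4.62 to 0.31 with RSG and from -5.58 to -2.0 with S, and its difference was 2.01 (interval 0.07 to 3.95). The skeletal muscle markers themselves had a median difference of 1.38, with 6 of 24 higher at an unadjusted p under 0.05 and 0 of 24 without S replicate 3. Their part in the glycolysis count was not tested. Pdk1, above, and Ldhb, the heart-type lactate dehydrogenase subunit, did not have such wide spreads. Ldhb ranged from 0.74 to 1.51 with RSG and from -0.01 to 0.59 with S, without overlap, a difference of 0.56 (0.25 to 0.87; limma adjusted p = 0.23 in the 12 mice and 0.053 with all 36), and of 0.60 at 84 µmol/kg (adjusted p = 0.03, or 0.5 with scan day as a block).

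S replicate 3 moved the counts of epithelial and of cholesterol genes. Of 21 epithelial and skin genes, 1 was higher with RSG at an unadjusted p under 0.05 with this mouse and 8 without it (6.05% of all sequences were then higher). Ltf, the lactoferrin of glandular epithelium and neutrophils, ranged from -3.58 to 2.87 with RSG and from -3.86 to 1.87 with S, where the S median was -3.51. Its difference was 2.68 with all mice and 3.59 without S replicate 3. Of 24 cholesterol synthesis genes, 0 were called at an unadjusted p under 0.05 with all mice (0 with adjustment in limma too) and 7 were higher without S replicate 3. Idi1, an enzyme of isoprenoid synthesis, stood at 3.63 in its highest S mouse, S replicate 3, and had an S median of -0.14. The RSG mice ranged from 0.05 to 3.06 with a median of 1.78, and the difference was 1.11 (interval -0.54 to 2.75) with all mice and 1.75 without S replicate 3 (adjusted p = 0.17).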

How the data were processed

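Fat RNA of each mouse was labelled with Cy5 on 1 array and with Cy3 on a second, against the pool in the other dye. The authors deposited scanner output of Agilent Feature Extraction 9.5 (per the submitters' processing notes), whose log10 ratio of red over green is background-subtracted and dye-normalised, along with the channels' signal intensity in linear units. A deposited table of log10 ratios by the authors, put on the log2 scale, was used as an alternative. In that table the columns of S replicates 4, 5 and 6 followed the arrays of other S mice of the same group (correlations with their own column of 0.887, 0.949 and 0.901), so the arrays were used. Table columns without a sample numbered 0.

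Each log10 ratio was turned to treated over pool, put on the log2 scale and averaged over the pair. Control spots were left out, as were spots marked as outliers (0.436%), and spots of 1 probe were averaged. A sequence entered the test if, for either compound, 50% or more of its arrays had the treated channel well above background. The contrast RSG minus S was fitted with limma 3.58.1 (R 4.3.3) on the 12 mice, with Benjamini-Hochberg adjustment over all sequences and 95% intervals, and with all 36 IAT mice for other doses and the interaction. Depth does not apply to arrays, and their number limits the precision. In data simulated for the 280 µmol/kg contrast on 29592 sequences, the fit found 34, 68, 78 and 86% of changes of 0.3, 0.6, 1.0 and 2.0 log2 units, with 8 false calls. Each of these changes was given to 50 sequences. The adjusted threshold depends on how many sequences change, so these shares do not say what share was found in the real contrast. The simulated errors were normal and independent, so mice that stand apart and shared slides were not simulated.

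Where a gene had several probes, that with the highest mean signal was taken. Named genes are the 4 with the smallest p of each of 46 lists and the one against the list's majority, all thermogenic genes, PPARγ targets and fat genes of the study, and called genes that do not overlap, of which 0 qualified in the 12 mice. For the 8 fat genes named by the study the median difference was 0.0553 and 0 had an unadjusted p under 0.05, and a list the study chose on these samples is not independent evidence. Members and lists were chosen with earlier results of these data known. Symbols follow RefSeq where the array's accession matched. Alternatives covered background correction, the authors' table, centring, quantile normalisation, filters, array weights, each dye, blocks and leaving out mice. The replicate numbers are not stated to pair mice.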

Additional observations from a re-analysis of the deposited data

Results flagged for a closer look

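Of 172 groups of 6 mice tested for 1 mouse standing apart, 21 had a gap between the outermost mouse and its neighbour, as a share of the group's range, above Dixon's critical value, which chance exceeds in about 1 of 20 groups. The groups are different genes in the same mice and are not independent. The genes were also chosen in part by their values here, so that rate is no benchmark for the 21. In the RSG group a low mouse, with this ratio, was found for Ucp1 (0.879), Elovl3 (0.787), Dio2 (0.772), Cpt1b (0.636), Ppara (0.714), Fgf21 (0.673), Plin2 (0.705), Cidec (0.697), Fasn (0.768), Tkt (0.675), Deptor (0.667) and Prdx6 (0.662). A high RSG mouse was found for Pdk1 (0.713), Gba2 (0.667), Idh2 (0.824) and Cx3cl1 (0.742). In the S group a low mouse was found for Dpt (0.668) and a high one for Elf5 (0.846), Ltf (0.914), Idi1 (0.838) and Cx3cl1 (0.67). The low RSG mouse of Ucp1, Elovl3, Dio2, Plin2 and Cidec was replicate 2, and the high S mouse of Ltf and Idi1 was replicate 3.

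The RSG minus S difference itself differed between 280 and 84 µmol/kg for 10 of the named genes (limma adjusted p under 0.05 for the interaction). Over all sequences the interaction called 335 of 30475 (1.1%), and 49 after normexp. The named genes were chosen in part by their p in these data, so their count is only a description. The change in log2 units was -1.06 for 6330408A02Rik, -1.74 for Cidea, -0.65 for Ppargc1b, -0.93 for Cpt1b, -0.69 for Letmd1, -0.72 for Ehhadh, -0.71 for Cbr3, 0.63 for Gli2, 2.28 for Cfi and 0.87 for Cfb.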

How the results depend on the processing

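The count of 1 sequence called at 280 µmol/kg was 494 with the spread of all 36 IAT mice, 3722 with scan day as a random block over those mice (within-day correlation -0.0536), 5 with array weights and 3 without a filter on dim probes. It was 0 with slide as a random block, with normexp and loess, with the authors' table, with quantile normalisation, with a stricter filter and with either dye alone, where 2470 sequences (slide), 3210 (normexp), 4220 (table), 3266 (quantile), 3761 (stricter filter), 4224 (Cy5) and 3618 (Cy3) had an unadjusted limma p under 0.05. Leaving out 1 mouse gave 0 to 3 (2979 to 5523 at an unadjusted p under 0.05), and without both S replicate 3 and RSG replicate 2, chosen after seeing the data, it was 8, or 282 with the other IAT mice in the fit. The 80 sequences past the methods' thresholds became 289 with all 36 mice, 587 with scan day as a random block, 31 with slide, 38 with normexp, 196 with array weights, 46 to 142 when 1 mouse was left out, 141 without both mice and 213 with the others added. They numbered 53 without RSG replicate 3, 46 without RSG replicate 4, 48 without S replicate 4 and 142 without S replicate 3. Without S replicate 3, the 3 called became 1145 with the other IAT mice, 4437 with scan day as a random block, 6 without a filter, 482 with array weights and 0 with normexp or the authors' table (4308 and 5490 at an unadjusted p under 0.05 in limma). No scan day held both compounds at 280 µmol/kg. A scan day block therefore cannot adjust this contrast or the interaction for scan day, and the larger counts with it are no evidence of more differences.

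At 84 µmol/kg the 666 became 1793 with scan day as a random block, 0 with it as a block over 24 mice and 2889 with array weights. At 28 µmol/kg the 2 became 8, 0 and 46, 4 with normexp, and 0 in the 12 mice of that dose (2034 under an unadjusted p of 0.05 with scan day as a block and 1185 in the 12 mice, in limma). The interaction's 335 became 1831 with scan day as a random block, 49 with normexp, 2721 with array weights and 1404 without S replicate 3. The cause of each move was not tested.

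Whether the replicate numbers pair the mice is not stated, and so few mice cannot decide it. Deviations of same-numbered RSG and S mice correlated from -0.395 to 0.512, 3 of 6 above 0.1, and 2 of 6 RSG mice were closest to their own number. With the replicate block 0 sequences were called at 280 µmol/kg (4741 at an unadjusted p under 0.05 in limma), 1021 at 84 µmol/kg, 0 at 28 µmol/kg (1447 at an unadjusted p under 0.05) and 1138 in the interaction.

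Of 2316 recomputed values of 86 genes, 92 passed the threshold where the reported value did not and 15 no longer passed. Only 1 of the 86 genes, 6330408A02Rik, was called in the reported fit, so all 15 were values of this gene. Among its values 0 changed sign, which says nothing about the sign of other genes. Among values not called, 5 changed sign by more than their SE: Prdm16 (to 0.06) and Pdk4 (to -0.29), each in both fits without S replicate 3 and RSG replicate 2, and Cfd with quantile normalisation. Of 1242 list medians 19 moved by more than the spread between mice. Signal was 2.62 to 3.76 times background, which limits dim probes.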
